A study of Mus musculus with 16 samples.

Results

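The genes of the major histocompatibility complex (MHC) and of antigen processing were followed in mouse small intestine with and without Cul4b, the gene of the scaffold protein CUL4B of a ubiquitin ligase. All protein-coding genes whose symbol starts with H2- were taken, together with B2m, Tap1, Tap2, Tapbp, Psmb8, Psmb9, Psmb10, Psme1, Psme2, Nlrc5, Ciita, Cd74 and Erap1. These are 47 genes, of 52636 rows in the crypt and KO-CAG organoid tables and 54532 in the KO-IEC organoid table. They fall into 25 class I genes (24 heavy chain genes and B2m), 10 genes that make, move, trim or load class I peptides or control them, 11 class II genes, and H2-Ke6, which is named for its place in the complex and codes for no MHC chain.

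RNA was sequenced from isolated crypts of C57BL/6 mice, 4 WT and 4 KO-IEC libraries, and from small intestinal organoids, 2 WT and 2 KO-IEC libraries and, in a separate experiment, 2 WT and 2 KO-CAG libraries. KO-IEC mice carry pVillin-Cre with a floxed Cul4b allele (Cul4b fn/Y), so the deletion is confined to cells that use the Villin promoter, and their WT controls carry the floxed allele without Cre. KO-CAG is CAG-CreERT2; Cul4b fn/Y, in which Cre is present in all cells and is switched on by tamoxifen, or by 10 µM 4-OHT in cultured organoids; the sources do not say whether its WT organoids carried CreERT2 or received 4-OHT. Mice were 8 to 16 weeks old in most experiments of the study, and the age behind each library is not given. The methods speak of biological replicates, but the labels do not tie a library to an animal or culture. Cul4b fell by 4.56 on the log2 scale in the crypts (SE 0.25, adjusted p = 0.000169), by 5.50 in the KO-IEC organoids (SE 0.22, adjusted p = 0.0311) and by 4.02 in the KO-CAG organoids (SE 0.16, adjusted p = 1.93e-06). Total counts ran from 7348191 to 16881395 per library, and a floor of 3 counts stood at 0.178 to 0.408 CPM (counts scaled to the library total with TMM factors). The epithelial markers Epcam, Vil1, Cdh1, Krt8, Krt18 and Krt19 were high in every library, at a summed 6322 to 11348 CPM. The crypts also held leukocyte transcripts, whereas the T cell markers summed to at most 3 counts in any organoid library.

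Class I molecules pair a heavy chain with beta-2-microglobulin and display peptides from inside the cell to CD8+ T cells. Those peptides are cut by the proteasome, whose catalytic subunits are exchanged for immunoproteasome subunits under interferon, then carried into the endoplasmic reticulum by the TAP transporter, trimmed by ERAP1 and loaded with the help of tapasin. Class II molecules show peptides from endosomes to CD4+ T cells; they are made by professional antigen-presenting cells and can be induced by interferon gamma in intestinal epithelium, where the transactivator CIITA controls them as NLRC5 controls class I.

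The promoters of members that differed in their behaviour are shown as their bases before the start site, since class I and class II promoters share the letters CCAAT of the Y box. RefSeq (GRCm38.p6) gave a promoter for 40 of the 47 members, and H2-Q1, H2-T24, Tap2, Nlrc5, Ciita, Cd74 and H2-Ab1 were without one. The motifs searched on both strands were the interferon-stimulated response element core GAAANNGAA, the gamma-activated site TTCNNNGAA, the Y box core CCAAT and the X box core TAGNAAC. Capitals mark every match. For each gene the 200 bases before its start are printed along its own strand, and for Psmb9 and Tap1, which start back to back, the 225 bases between the 2 starts along the strand of Tap1.
B2m, chr2:122147487-122147686, plus strand: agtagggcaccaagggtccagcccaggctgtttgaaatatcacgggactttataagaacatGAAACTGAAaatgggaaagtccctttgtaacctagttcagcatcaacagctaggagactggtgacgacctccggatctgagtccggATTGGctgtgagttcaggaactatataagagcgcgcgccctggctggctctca
H2-D1, chr17:35262894-35263093, plus strand: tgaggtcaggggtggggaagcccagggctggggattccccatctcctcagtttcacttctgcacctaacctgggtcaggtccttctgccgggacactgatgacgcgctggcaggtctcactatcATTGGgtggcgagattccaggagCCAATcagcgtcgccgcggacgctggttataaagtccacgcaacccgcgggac
H2-T23, chr17:36032702-36032901, minus strand: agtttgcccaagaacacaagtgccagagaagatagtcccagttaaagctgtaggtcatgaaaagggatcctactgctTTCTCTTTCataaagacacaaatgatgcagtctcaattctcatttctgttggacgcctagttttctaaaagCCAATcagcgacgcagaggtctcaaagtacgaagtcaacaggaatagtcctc
Psmb8, chr17:34197995-34198194, plus strand: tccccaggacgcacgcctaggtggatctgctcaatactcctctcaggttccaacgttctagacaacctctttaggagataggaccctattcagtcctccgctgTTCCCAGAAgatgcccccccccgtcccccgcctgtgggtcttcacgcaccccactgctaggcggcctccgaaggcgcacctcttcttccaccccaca
H2-Eb1, chr17:34305667-34305866, plus strand: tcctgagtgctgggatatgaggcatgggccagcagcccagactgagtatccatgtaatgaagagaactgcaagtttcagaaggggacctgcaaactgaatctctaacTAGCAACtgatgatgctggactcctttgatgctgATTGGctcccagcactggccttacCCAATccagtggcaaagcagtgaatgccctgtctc
between Psmb9 and Tap1, chr17:34187331-34187555, plus strand: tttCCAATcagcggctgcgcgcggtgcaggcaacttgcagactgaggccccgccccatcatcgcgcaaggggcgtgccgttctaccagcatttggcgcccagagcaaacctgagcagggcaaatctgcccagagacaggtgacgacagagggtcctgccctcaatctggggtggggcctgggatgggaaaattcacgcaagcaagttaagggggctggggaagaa

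Over the full promoter windows (250 bases before to 50 after the start), the Y box core was present in 20 of 23 class I promoters, 3 of 8 processing promoters and 8 of 8 class II promoters, against 41.1% of the 27025 genes with a promoter. The X box core was in 4 of 8 class II promoters, H2-Eb1 among them, and in 1 of 23 class I promoters, against 13% of all genes. The interferon-stimulated response element core was in 3 class I promoters, those of B2m, H2-T22 and H2-T23, and in those of Erap1 and Psme1, against 9.76% of all genes. The gamma-activated site was in 2 class I promoters, in that of Psmb8 and in 1 of 8 class II promoters, against 9.55% of all genes. A match describes the letters of the window and no more.

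In the crypts, 3 class I genes were higher in KO-IEC, and no processing or class II gene was called. Of the 32 members that passed the filter on low counts (14 class I, 10 processing, 8 class II), 3 were called at an adjusted p under 0.05, all of them class I and all higher: B2m, H2-D1 and H2-T24. Over all 13427 genes tested, 6.96% were called, 4.3% higher and 2.66% lower. The median log2 fold change was 0.56 for the tested class I genes, -0.04 for the processing genes and -0.17 for the class II genes, against -0.01 for all genes. Of the 14 class I genes 12 had a positive log2 fold change, as did 19 of all 32 tested members and 48.9% of all genes. At an unadjusted p under 0.05 stood 8 of the 32 members, against 31.9% of all genes. H2-T24 was the 1 called member that passed 2-fold, where 1.79% of all genes were called and passed 2-fold, with 1.44% of all genes higher in KO-IEC by that rule. The other 15 members did not pass the filter, 4 of them without a count. Per length, B2m was the most abundant member in the crypts of both genotypes, at 1557 ± 244 in WT and 2667 ± 459 in KO-IEC (counts per base of gene length, scaled to 1 common total in every library; SD, n = 4), followed in KO-IEC by H2-K1 and H2-D1. In WT crypts Cd74, the class II invariant chain, averaged 695 and H2-K1 629 by this measure, and 477 and 577 without WT replicate 2, so that 1 library sets their order.

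B2m, the light chain of every class I molecule, stood at 539, 617, 451 and 684 CPM in the 4 WT crypt libraries and at 739, 968, 1168 and 972 CPM in the 4 KO-IEC libraries. The lowest KO-IEC library was above the highest WT library, and the log2 fold change was 0.75 (SE 0.18, adjusted p = 0.0457, edgeR). H2-D1, a classical heavy chain, stood at 517, 570, 418 and 492 CPM in WT and at 599, 768, 836 and 716 CPM in KO-IEC. Again no library crossed over, and the log2 fold change was 0.55 (SE 0.14, adjusted p = 0.0499, edgeR). H2-K1, the other classical heavy chain of this strain, stood at 737, 836, 517 and 705 CPM in WT and 871, 1180, 1387 and 1114 CPM in KO-IEC. The groups did not overlap either, but the test just missed the threshold (log2 fold change 0.70, SE 0.19, adjusted p = 0.0516, edgeR). H2-T24, a non-classical heavy chain, was low, at 32, 31, 45 and 29 counts in WT and 67, 80, 57 and 55 counts in KO-IEC. Its log2 fold change was 1.05 (SE 0.20, adjusted p = 0.0397, edgeR). H2-T24 lies wholly inside the antisense RNA gene A930015D03Rik, which had 0 to 4 counts in every crypt library. Of the 32 tested members these 4 did not overlap between genotypes and were higher in KO-IEC, and 0 did not overlap and were lower, against 8.7% and 8.79% of all genes.

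Of the other non-classical genes H2-Q2 and H2-Q1 had larger log2 fold changes than H2-T24, with a wider spread. H2-Q2 stood at 221, 180, 107 and 290 CPM in WT and 282, 409, 715 and 554 CPM in KO-IEC, with 1 KO-IEC library inside the WT range (log2 fold change 1.30, SE 0.34, adjusted p = 0.0516, edgeR). H2-Q1 stood at 46.4, 28.5, 16.4 and 85.1 CPM in WT and 83.6, 116, 220 and 146 CPM in KO-IEC (1.68, SE 0.47, adjusted p = 0.0586). H2-T23, which codes for Qa-1 and presents leader peptides of other class I chains, stood at 123, 125, 82.8 and 131 CPM in WT and 121, 241, 245 and 223 CPM in KO-IEC (0.85, SE 0.23, adjusted p = 0.0555). In all 3 genes KO replicate 1 was the KO-IEC library that lay within the WT range. H2-T3, the thymus leukemia antigen of intestinal epithelium, had a log2 fold change of 0.36 (SE 0.24, adjusted p = 0.32), and H2-Q4 had one of 0.11 (SE 0.20, adjusted p = 0.728). H2-Q6, H2-Q7 and H2-Q10 lay between -0.22 and 0.57.

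**Figure D1:**
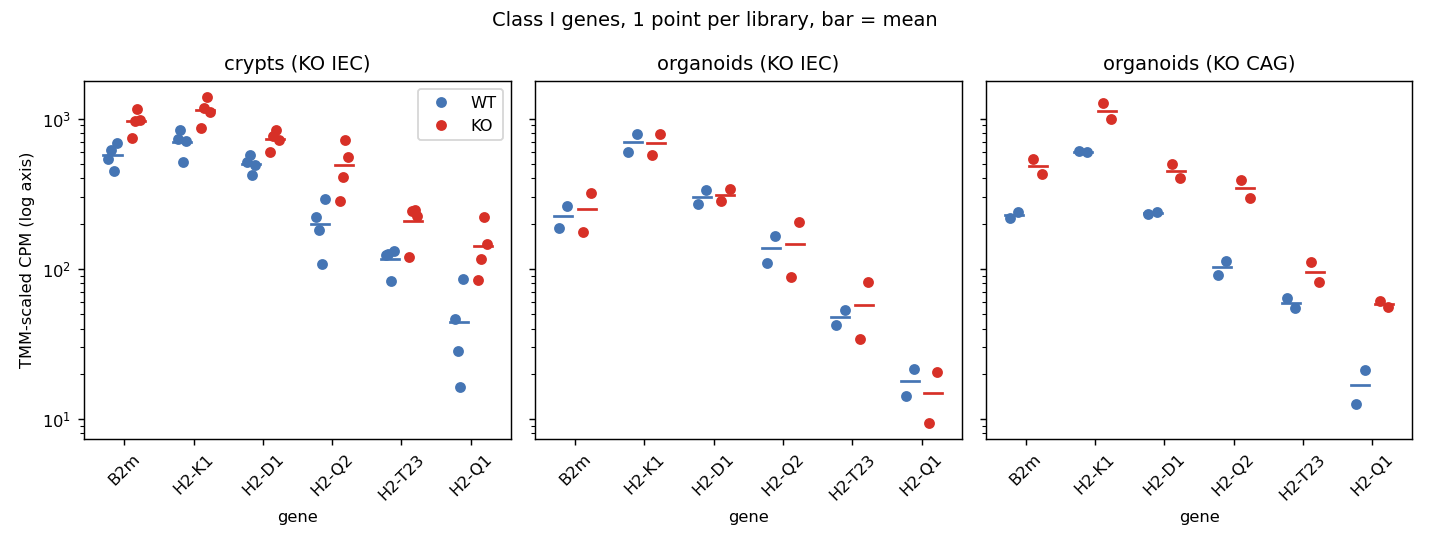
TMM-scaled CPM (log axis) of 6 class I genes in each library of the crypts, the KO-IEC organoids and the KO-CAG organoids, WT in blue and KO in red, with the mean of each group as a bar. In the crypts and KO-CAG organoids B2m, H2-K1 and H2-D1 do not overlap between WT and KO, whereas in the KO-IEC organoids they do.

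The number of calls moved with single libraries, for the members as for all genes. No member was called without WT replicate 1, 2 or 3 or KO replicate 2 or 3, when at most 0.147% of all genes were called. Without KO replicate 4, 1 member was called (3.75% of all genes), without WT replicate 4, 5 members (13.6%) and without KO replicate 1, 9 members (18%). DESeq2 called 8 of the 32 members, H2-K1, H2-Q1, H2-Q2, H2-T23 and Tap2 besides the 3, and 18.7% of all genes. The log2 fold change of B2m stayed between 0.65 and 0.87 with each library left out in turn. The enterocyte markers moved with these genes: the 9 markers Alpi, Apoa1, Apoa4, Fabp1, Fabp2, Sis, Lct, Krt20 and Anpep summed to 2343 to 10443 CPM in WT crypts and to 9664 to 19637 CPM in KO-IEC crypts. None of the 9 was called by edgeR, 8 were at an unadjusted p under 0.05 (31.9% of all genes) and DESeq2 called 6. The 5 stem cell markers went the other way, with 2 called lower (2.66% of all genes). With the enterocyte score as a covariate the log2 fold change of B2m was 0.32 (adjusted p = 0.686) and that of H2-D1 0.34 (adjusted p = 0.675); no member and 0.00745% of all genes were called. In bulk libraries, fewer or more cells of a type and less or more RNA per cell cannot be told apart. The crypt libraries also differed in mitochondrial ribosomal RNA, which was above 2000 CPM in WT replicates 2 and 3. Within the libraries under 100 CPM (1 WT, 3 KO-IEC) the ratio of KO-IEC to WT was 1.78 for B2m, 1.42 for H2-D1 and 2.24 for H2-T24, and within those between the bounds (1 of each) it was 1.42, 1.46 and 2.17. Without the 2 libraries above 2000 CPM the log2 fold changes of B2m and H2-D1 were 0.65 and 0.53, each with an adjusted p of 0.391. T cell markers summed to 15.2 to 95.6 CPM in WT and 43.6 to 336 CPM in KO-IEC crypts; with the leukocyte score as a covariate B2m, H2-Q1, H2-Q2 and H2-T24 were called, and 7.34% of all genes.

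Of the 10 processing genes all were tested in the crypts and none was called by edgeR, with 1 at an unadjusted p under 0.05 (Tap2) and 1 called by DESeq2 (Tap2). Tap2, a subunit of the peptide transporter, stood at 29.2, 32.1, 17.1 and 26.8 CPM in WT and 28.3, 43.8, 66.8 and 35.5 CPM in KO-IEC, and its log2 fold change was 0.73 (SE 0.27, adjusted p = 0.107). Its partner Tap1 had one of 0.11 (SE 0.29) and tapasin, Tapbp, one of 0.22 (SE 0.20). The immunoproteasome subunits Psmb8, Psmb9 and Psmb10 had log2 fold changes of -0.17 (SE 0.29), -0.16 (SE 0.20) and -0.21 (SE 0.12), and the PA28 activator subunits Psme1 and Psme2 of -0.18 (SE 0.12) and -0.09 (SE 0.13). Erap1, the trimming peptidase, stood within 161 to 215 CPM in all 8 libraries. Nlrc5, the transactivator of class I, had a log2 fold change of 0.69 (SE 0.44, adjusted p = 0.298).

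Class II transcripts were spread widely among the crypt libraries of each genotype. Of 8 tested class II genes none was called, none was at an unadjusted p under 0.05 in edgeR and none was called by DESeq2. Cd74 stood at 330, 774, 268 and 274 CPM in WT and 144, 376, 543 and 264 CPM in KO-IEC, with a log2 fold change of -0.31 (SE 0.44, adjusted p = 0.652). H2-Ab1, the beta chain of I-A, stood at 145, 355, 114 and 119 CPM in WT and 74.6, 178, 290 and 140 CPM in KO-IEC (-0.10, SE 0.46, adjusted p = 0.896). WT replicate 2 was the highest library and KO replicate 1 the lowest in both genes.

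The same order of extremes held for the other class II genes of the core set. H2-Aa, the I-A alpha chain, ran from 17.4 CPM in KO replicate 1 to 127 CPM in WT replicate 2, H2-Eb1 from 41.0 to 224 CPM, H2-DMa, part of the peptide exchange factor, from 12.3 to 61.6 CPM, and Ciita, the class II transactivator, from 5.81 to 24.1 CPM. The log2 fold changes of these 4 genes lay between -0.45 and 0.16, with standard errors of 0.41 to 0.58. Nlrc5, Psmb8 and Tap1 were highest in WT replicate 2 or KO replicate 3 as well. Without WT replicate 2 the log2 fold change of Cd74 was 0.19, that of H2-Ab1 0.44, that of H2-Eb1 0.41 and that of H2-DMa 0.02, and that of H2-Ab1 was also positive without KO replicate 1 (0.15) or KO replicate 4 (0.0010). Leukocyte markers did not follow this order: the 6 leukocyte markers summed to 18.3 CPM in WT replicate 2, to 84.5 CPM in KO replicate 3 and to 59.7 CPM in WT replicate 4, and the 6 macrophage and dendritic cell markers lay within 10.9 to 17.1 CPM in all 8 libraries. H2-DMb1, the partner of H2-DMa, ran from 8.46 CPM in KO replicate 1 to 39.2 CPM in WT replicate 2, the order of the core class II genes. H2-Eb2, H2-Oa, H2-Ob and H2-DMb2 had at most 59 counts in any crypt library and did not follow this order: H2-Ob, H2-DMb2 and H2-Eb2 were highest in WT replicate 4, at 4.74, 2.49 and 1.61 CPM.

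**Figure D2:**
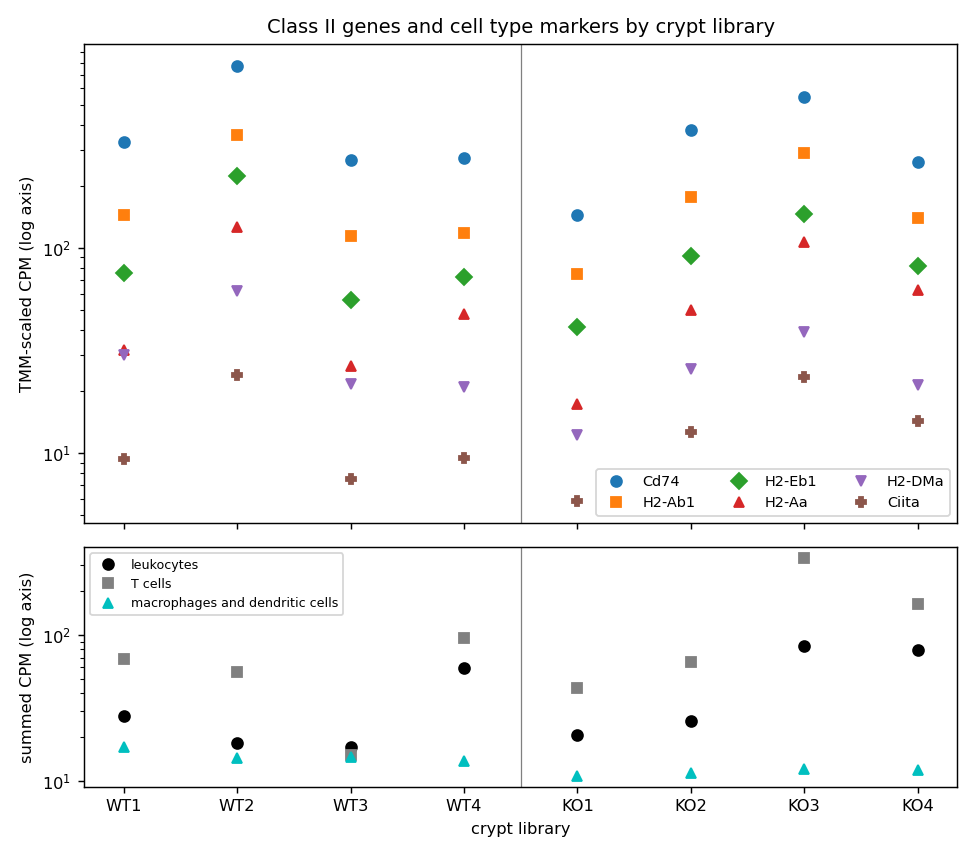
Class II genes (upper panel, TMM-scaled CPM, log axis) and summed leukocyte, T cell and macrophage or dendritic cell markers (lower panel, log axis) in the 8 crypt libraries. Each of the 6 class II genes plotted is highest in WT replicate 2 and lowest in KO replicate 1. The leukocyte markers of WT replicate 2 sum to 18.3 CPM.

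In the KO-CAG organoids the classical class I chains, B2m and most of the loading machinery were higher than in WT. A few class I genes and Erap1 were called lower in the fit of these 4 libraries, and their number fell from 4 to between 0 and 2 in some other fits. Of 27 tested members, Nlrc5 and Cd74 passed the filter through the KO-CAG libraries alone and are given below by their counts. Of the other 25, 18 were called, 14 higher and 4 lower (11 of 14 class I, 7 of 9 processing, 0 of 2 class II), where 31.5% of all 13598 tested genes were called, 18.1% higher and 13.4% lower. The median log2 fold change was 0.57 for these class I and 0.65 for these processing genes, against 0.00 for all genes. Of the 18, 6 passed 2-fold (B2m, H2-Q1, H2-Q2, Psmb8, Psme2 and Tapbp), against 8.6% of all genes, and these 6 were all higher, against 6.36%. At an unadjusted p under 0.05 stood 19 of the 25, against 43% of all genes, and 17 of the 25 had a positive log2 fold change, against 50.1%. Without overlap between the 2 libraries of each group were 15 members higher and 7 lower, against 35.5% and 34.2% of all genes. The remaining 20 members did not pass the filter.

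B2m stood at 217 and 240 CPM in WT and 540 and 427 CPM in KO-CAG. The log2 fold change was 1.08 (SE 0.12, adjusted p = 0.000148, edgeR). H2-K1 stood at 607 and 599 CPM in WT and 1265 and 999 CPM in KO-CAG (0.91, SE 0.12, adjusted p = 0.000354), and H2-D1 at 233 and 240 against 496 and 404 CPM (0.93, SE 0.11, adjusted p = 0.0002). None of these 3 overlapped between genotypes. H2-Q2 showed 90.8 and 114 CPM against 392 and 294 CPM, a rise of 1.75 on the log2 scale (SE 0.15, adjusted p = 3.32e-05). H2-Q1 rose by 1.80, H2-T3 by 0.98, H2-T23 by 0.68 and H2-Q4 by 0.45. Against them H2-Q7 fell by 0.92 (8.07 and 7.77 CPM in WT, 2.92 and 5.19 CPM in KO-CAG; adjusted p = 0.0349), H2-Q6 by 0.67 (adjusted p = 0.0362) and H2-Q10, a heavy chain secreted from liver, by 0.34 (111 and 110 against 82.9 and 90.8 CPM; adjusted p = 0.0115). H2-Q6 and H2-Q7 share letters with other genes, 32.0% and 26.4% of their 50-base stretches, so the split of reads among the H2-Q rows is uncertain. H2-T24, called in the crypts, stood at 4.46 and 4.79 against 3.48 and 4.13 CPM here (-0.27, SE 0.28, adjusted p = 0.488). Summed over all H2-Q rows, the mean was 274 CPM in WT and 536 CPM in KO-CAG.

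Among the processing genes Tapbp showed 48.2 and 49.0 CPM in WT and 122 and 96.8 CPM in KO-CAG, a 2.24-fold rise (adjusted p = 7.92e-05, edgeR). Its row shares 3422 bases with Zbtb22 on the same strand, which had a log2 fold change of -0.08 (SE 0.11). Psmb8, the inducible subunit that replaces Psmb5, stood at 26 and 20 counts in WT and 83 and 108 counts in KO-CAG. It rose by 1.92 on the log2 scale (SE 0.25, adjusted p = 0.000362). Psme2 rose by 1.03 (29.5 and 30.7 against 72.7 and 51.3 CPM; SE 0.16, adjusted p = 0.000911), Tap2 by 0.74, Tap1 by 0.65 and Psme1 by 0.35. Psme2 shares 28.3% of its 50-base stretches with Psme2b, which rose by 0.43 (SE 0.10, adjusted p = 0.0107). Erap1 fell by 0.23 (96.0 and 95.4 against 80.6 and 82.2 CPM; SE 0.08, adjusted p = 0.0498); its row overlaps Cast by 834 bases on the opposite strand, and Cast rose by 0.55 (SE 0.11, adjusted p = 0.00370).

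Psmb9, which lies head to head with Tap1, was not called. It stood at 11.1 and 8.94 CPM in WT and 7.92 and 9.33 CPM in KO-CAG, and the log2 fold change was -0.21 (SE 0.21, 95% interval -1.11 to 0.70, adjusted p = 0.481). Tap1 stood at 18.8 and 17.8 against 28.5 and 29.0 CPM (0.65, SE 0.13, 95% interval 0.09 to 1.22, adjusted p = 0.00411). The 2 intervals overlap, and the difference between the genes was not tested. Their rows share 212 bases on opposite strands, and whether strand was used in counting is not given. Psmb10 stood at 47.5 and 56.8 against 67.3 and 62.3 CPM (0.31, SE 0.11, adjusted p = 0.0512). As ratios of levels per length to the constitutive counterpart, Psmb8 over Psmb5 was 0.0126 and 0.00932 in WT and 0.0405 and 0.0350 in KO-CAG, whereas Psmb9 over Psmb6 was 0.0444 and 0.0391 against 0.0310 and 0.0331, and Psmb10 over Psmb7 was 1.08 and 1.19 against 1.42 and 1.26. In the crypts Psmb8 over Psmb5 lay at 0.254 to 0.583 in WT and 0.297 to 0.681 in KO-IEC.

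**Figure D3:**
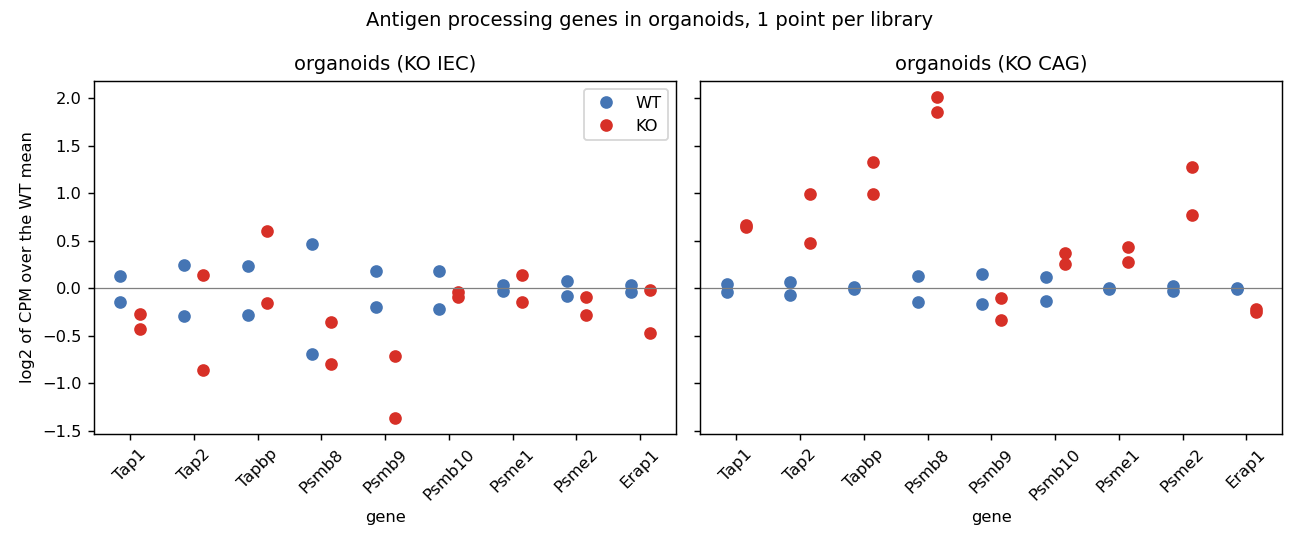
Antigen processing genes in organoids as the log2 ratio of each library's CPM to the WT mean, KO-IEC on the left and KO-CAG on the right. In the KO-CAG organoids both KO libraries lie above both WT libraries for Tap1, Tap2, Tapbp, Psmb8, Psmb10, Psme1 and Psme2, and Psmb9 does not.

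Nlrc5 and Cd74 were near 0 in WT and were tested only because of their KO-CAG counts, so no test is given for them. Nlrc5 had 0 and 2 counts in WT and 10 and 17 in KO-CAG, a ratio of 12.3 with a 95% counting interval of 3.09 to 107, which covers counting error only. Cd74 had 0 and 0 counts in WT and 12 and 14 in KO-CAG, at least 4.02-fold higher when each WT library is set at its floor of 3 counts. H2-Ab1 and H2-DMa, the other tested class II genes, stood at 4.22 and 3.76 against 2.36 and 2.69 CPM and at 4.22 and 4.79 against 3.06 and 3.65 CPM, with log2 fold changes of -0.65 (SE 0.31, adjusted p = 0.134) and -0.41 (SE 0.29, adjusted p = 0.303). The other class II genes had at most 12 counts per library there, and Ciita had 1 to 5. Of the macrophage and dendritic cell markers that passed the filter in these libraries, Csf1r averaged 0.500 CPM in WT and 3.61 CPM in KO-CAG, and Cd68 averaged 3.48 and 2.62 CPM. Ptprc, the pan-leukocyte marker, had at most 7 counts and Adgre1 was at 0 counts. The 6 leukocyte markers, Ptprc among them, summed to 1.33 to 1.43 CPM in WT and to 2.78 to 3.56 CPM in KO-CAG. Of these 6, 1 passed the filter. All 6 together had 11 counts in each WT library and 20 and 37 counts in the KO-CAG libraries, so no test is given for it. The 6 macrophage and dendritic cell markers together summed to 4.41 to 4.94 CPM in WT and to 6.63 to 9.04 CPM in KO-CAG. The part of either list in the Cd74 counts was not tested.

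The number of calls in the KO-CAG organoids changed with the fit. edgeR's coefficient of variation between libraries of a group was 0.081 there, 0.231 in the crypts and 0.280 in the KO-IEC organoids. The labels do not say whether the 2 KO-CAG or the 2 WT libraries came from separate cultures. With all 16 libraries in 1 fit, which shares the spread of the 3 experiments and tests 34 members, only H2-D1 and Psme2 were called, both higher, and 3.06% of all genes. DESeq2 called 14 of the 27 tested members, 13 higher and 1 lower (H2-Q10), and 20.3% of all genes. The 27 include Cd74 and Nlrc5, which passed the filter through the KO-CAG libraries alone, and the 14 include Cd74. The counts without 1 library likewise include Cd74 or Nlrc5 where these were called. Without 1 library at a time 12 to 19 were called, the fewest without WT replicate 1, where 19.8% to 36.8% of all genes were. No member was called lower without WT replicate 1, without WT replicate 2 or in the fit of all 16 libraries.

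Markers of several epithelial cell types moved with class I in these organoids, where 31.5% of all genes were called, 18.1% higher and 13.4% lower. The enterocyte markers summed to 4579 to 4932 CPM in WT and to 10573 to 13493 CPM in KO-CAG, with 8 of 9 called higher. The Paneth cell markers summed to 3591 to 4012 CPM in WT and to 6135 to 6586 CPM in KO-CAG, with 5 of 6 called higher. Of the 6 epithelial markers 4 were called higher, and of the 5 stem cell markers 2 were called lower, Lgr5 and Smoc2. Their part in the result was not tested.

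In the KO-IEC organoids no member was called. Of 26 tested members 2 were at an unadjusted p under 0.05 in edgeR, and DESeq2 called 0; of all 13938 genes tested, 0.00717% were called and 4.66% had an unadjusted p under 0.05. H2-K1 stood at 597 and 794 CPM in WT and 574 and 793 CPM in KO-IEC (-0.02, SE 0.25), H2-D1 at 270 and 336 against 282 and 341 CPM (0.04, SE 0.20), and B2m at 187 and 261 against 175 and 322 CPM (0.15, SE 0.35). Replicate 2 lay above replicate 1 in both genotypes for all 3. The 2 genes under an unadjusted p of 0.05 were Psmb9, at 9.44 and 12.3 against 4.22 and 6.62 CPM (0.499-fold, 95% interval of the log2 fold change -2.53 to 0.53, adjusted p = 0.856), and H2-Q6, at 10.4 and 17.3 against 7.23 and 7.43 CPM (-0.91, SE 0.34, adjusted p = 0.856). Class II was low and uneven: Cd74 had 18 and 82 counts in WT and 4 and 21 in KO-IEC (-1.97, SE 1.11, adjusted p = 0.856), and H2-Ab1 had 140 and 241 against 23 and 116 (-1.39, SE 0.84, adjusted p = 0.856). H2-DMa had 73 and 131 counts against 76 and 188 (0.42, SE 0.62, adjusted p = 0.886). H2-Aa, H2-Eb1 and Ciita had at most 2, 11 and 7 counts per library.

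The processing genes other than Psmb9 had log2 fold changes of less than 1.5 times their standard errors. Tap1 had 296 and 312 counts against 232 and 231 (-0.35, SE 0.24), Tap2 stood at 6.85 and 9.95 against 4.64 and 9.25 CPM (-0.28, SE 0.44) and Tapbp at 48.7 and 69.6 against 53.2 and 89.7 CPM (0.27, SE 0.32). Psmb8 had 64 and 124 counts against 57 and 69 (-0.56, SE 0.49), and Psmb10 had 950 and 625 against 747 and 692 (-0.07, SE 0.20). Erap1 stood at 90.7 and 85.9 against 87.1 and 63.9 CPM (-0.23, SE 0.20), and Nlrc5, with 5 and 0 against 1 and 1 counts, was not tested. Of the 26 tested members 12 had a positive log2 fold change, against 48.8% of all genes. Without overlap between genotypes were 6 members lower and 0 higher, against 19.4% of all genes in each direction. The intervals are wide: that of B2m ran from -1.36 to 1.66 on the log2 scale, which includes the log2 fold change seen in the KO-CAG organoids. Those of H2-D1, H2-Q1, Psmb8 and Psme2 ended at 0.91, 1.67, 1.57 and 0.64, below the KO-CAG values of 0.93, 1.80, 1.92 and 1.03. The intervals of the other members called in the KO-CAG organoids, Cd74 and Nlrc5 aside, included the KO-CAG value. Enterocyte markers in these organoids summed to 5680 and 9804 CPM in WT and to 4134 and 12490 CPM in KO-IEC.

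**Figure D4:**
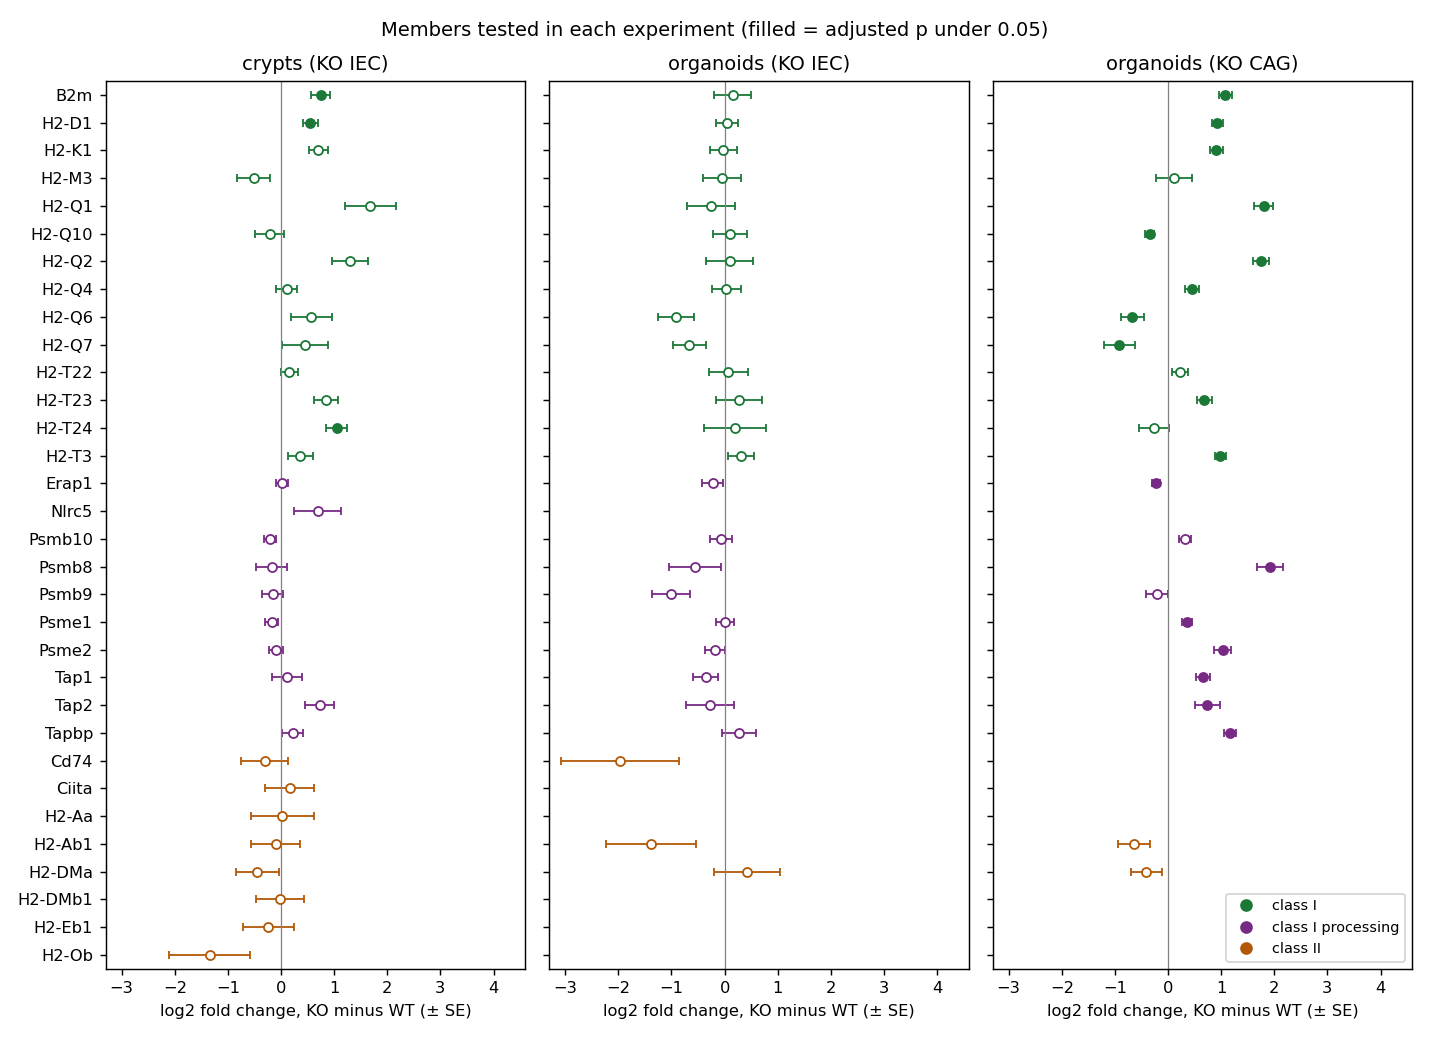
Log2 fold change of KO over WT with its SE for every member tested in the crypts, the KO-IEC organoids and the KO-CAG organoids; filled points have an adjusted p under 0.05, and Cd74 and Nlrc5 in the KO-CAG organoids are left off because they were near 0 counts in WT. B2m, H2-D1, H2-K1, H2-Q1 and H2-Q2 lie to the right in the crypts and KO-CAG organoids, and between -0.26 and 0.15 in the KO-IEC organoids.

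The difference of the knockout effect between experiments was tested over all 16 libraries with 34 members. No member was called by edgeR in any of the 3 pairs of experiments, and no second tool was run. Of 15585 genes 0.372% were called for crypts against KO-CAG organoids, 0.385% for KO-CAG against KO-IEC organoids and 0.00642% for crypts against KO-IEC organoids. At an unadjusted p under 0.05 stood 7, 9 and 4 of the 34 members. The share of all genes at that level was not counted, so no excess can be read from these numbers. Cd74 is among the 7, and Cd74 and Nlrc5 are among the 9, both near 0 counts in WT of the KO-CAG experiment. The smallest adjusted p was that of Psme2, whose effect was lower in the crypts than in the KO-CAG organoids by a log2 difference of -1.12 (SE 0.23, adjusted p = 0.0633). For KO-CAG minus KO-IEC organoids it was again that of Psme2 (log2 difference 1.20, SE 0.27, adjusted p = 0.0929). Psmb8 (2.45, SE 0.71) and H2-D1 (0.86, SE 0.27) followed in that pair, with adjusted p = 0.198 and 0.247. For H2-K1 and B2m the effects were not shown to differ between the KO-CAG and KO-IEC organoids (log2 differences, KO-CAG minus KO-IEC, of 0.91, SE 0.36, and 0.90, SE 0.42; adjusted p = 0.378 and 0.457).

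Genes around the pathway were counted from lists of known roles. Their counts by edgeR stand beside 6.96% of all genes called in the crypts, 4.3% higher, and 31.5% in the KO-CAG organoids, 18.1% higher. Those by DESeq2 stand beside 18.7% of all genes in the crypts and 20.3% in the KO-CAG organoids. Of 19 regulators of MHC genes 3 rose in the crypts: Stat2, which carries type I interferon signals (0.69 on the log2 scale, SE 0.18, adjusted p = 0.0493), Jak2, a kinase of the interferon gamma receptor (0.75, SE 0.18, adjusted p = 0.0460), and Ifngr2, a chain of that receptor (0.54, SE 0.13, adjusted p = 0.0479). DESeq2 called 4 of the 19. In the KO-CAG organoids 6 of 18 tested rose (4 called by DESeq2), the largest being Ifnar2 (1.12, SE 0.17), Irf1, a direct activator of class I and Psmb genes (0.74, SE 0.15), and Stat2 (0.53, SE 0.11). Of 6 peptide loading partners, Calr (0.32), Pdia3 (0.28) and Hspa5 (0.28) rose in KO-CAG organoids and Lnpep, a peptidase, fell by 0.59. Of 6 proteasome counterparts Pomp, an assembly factor, rose there (0.46). Of 6 endosomal proteases and reductases that serve class II, 5 rose in the KO-CAG organoids, with Ctss (0.98), Ctsl (0.96) and Ctsd (0.95) the largest, and 1 of 5 tested fell in the crypts, Lgmn, by 0.93 (adjusted p = 0.0431). Of the class I-like genes outside the complex 3 were tested in the crypts and 3 in the KO-CAG organoids, and none was called there by edgeR or DESeq2 or was at an unadjusted p under 0.05. None of the KO-IEC organoid genes of these 5 lists was called or was at an unadjusted p under 0.05 in edgeR, and DESeq2 called 0.

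The remaining members gave little signal. H2-M1, H2-M9, H2-M11 and H2-M10.4 were at 0 counts in all 16 libraries, and the other H2-M genes apart from H2-M3 had at most 11 counts in any. H2-M3, which presents formylated peptides, was tested in all 3 experiments and called in none (log2 fold changes of -0.52, -0.05 and 0.11), with H2-T22 at 0.15, 0.07 and 0.22. H2-Ke6 had at most 8 counts, and 70.5% of its 50-base stretches recur in the overlapping gene Gm20427. H2-T22 shares 34.5%, H2-D1 12.8% and H2-K1 9.63% of their stretches with other genes, and the sums of H2-K1 and H2-D1 were 1198 and 1867 CPM in WT and KO-IEC crypts and 839 and 1582 CPM in WT and KO-CAG organoids.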

How the data were processed

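RNA of 16 libraries in 3 experiments was analysed. The values are whole-number read counts for each gene as the authors deposited them, in 1 table per experiment; the submitters' processing notes name HISAT2 2.0.5 and featureCounts 1.5.0-p3, and genome build, annotation, strand setting and the treatment of reads with several matches are not given in the sources used here. All 47 members are in GENCODE M21 (GRCm38), 35 with the same start and end. Each experiment was fitted alone, KO against WT, using filterByExpr, TMM scaling and glmQLFTest (quasi-likelihood) from edgeR 4.0.16 under R 4.3.3, Benjamini-Hochberg adjusted over all tested genes; called means an adjusted p under 0.05. Standard errors were obtained as the absolute log2 fold change over sqrt(F). The 95% intervals use t quantiles at the residual degrees of freedom, without the shared prior that enters the p-values, and are wider than those tests. Differences between experiments were fitted over all 16 libraries. Levels per length use the gene lengths of the tables. DESeq2 1.42.0 was an alternative, with those in the closing section. The fits were tested on simulated data. No count column was left without a sample. Groups come from the sample titles, and p-values measure the spread between libraries. Named were 17 core members in every experiment, any member called anywhere, at most 3 called genes per surrounding list and Cul4b; the other members' values were chosen to account for all. The members and lists were chosen with earlier results of these data known. Total counts and floors, given with the results, cover counting error only.

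Sequence shared between rows is the share of 50-base stretches of a gene's transcripts that recur in another gene's. The labels' shared replicate numbers were checked as pairs: deviations of same-numbered libraries correlated at -0.04, 0.19, -0.40 and 0.43 in the crypts, at 0.34 in the KO-IEC and at 0.07 in the KO-CAG organoids. No source ties a number to an animal or batch, not every crypt pair exceeded 0.1 and the organoids have only 2 pairs, so the numbers are treated as names.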

Additional observations from a re-analysis of the deposited data

Results flagged for a closer look

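In groups of 4 crypt libraries, 6 of 56 groups of named members had a library far from the other 3 (the gap to the nearest, as a share of the range, above Dixon's critical value at the 95% level); chance alone gives about 1 in 20. WT replicate 2 was the high library for 5 of them: Cd74 at 774 CPM (others 268 to 330), H2-Ab1 at 355 CPM (114 to 145), H2-Eb1 at 224 CPM (55.6 to 75.5), Ciita at 24.1 CPM (7.52 to 9.49) and Nlrc5 at 16.5 CPM (4.80 to 6.54). These 5 results share 1 library and are not independent. H2-T23 in WT replicate 3 was the low library, at 82.8 CPM (others 123 to 131). WT replicates 2 and 3 are also the libraries above 2000 CPM of mitochondrial ribosomal RNA, and its part in these values was not tested.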

How the results depend on the processing

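The count of members called in the crypts (3) was 7 without a filter on low counts, 5 with at least 10 counts in every library, 8 by DESeq2, 6 with all 16 libraries in 1 fit, 1 with at least 2-fold required, and 0 with mitochondrial ribosomal RNA class as covariate, with enterocyte score as covariate or without the high mitochondrial ribosomal RNA class; with single libraries left out it ran from 0 to 9. Over these settings 0.00715% to 18.7% of all genes were called. It was 2 with DESeq2 size factors or library size scaling and 4 with the leukocyte score. In the KO-IEC organoids (0) it was 1 without the filter (H2-Ab1), when 0.917% of all genes were called. With single libraries left out there, the log2 fold change of H2-T23 ran from -0.49 to 0.76 and that of H2-T3 from 0.02 to 0.55. The count of members called moved as well. In the KO-CAG organoids (20, Nlrc5 and Cd74 included) it was 8 with 2-fold required, 2 with all 16 libraries in 1 fit and 12 to 19 with single libraries left out. A left-out library in the organoids leaves a lone sample assumed to vary like the other group. For the difference between experiments it was 0 under both other scalings, and 6, 7 and 5 (crypts against KO-CAG, KO-CAG against KO-IEC, crypts against KO-IEC) without the filter, when members near 0 counts were tested as well. The cause of the other changes was not tested. With the replicate block, 0 members were called in the crypts (edgeR, B2m adjusted p = 0.0898, H2-T24 0.0891, H2-D1 0.100), where 0.0298% of all genes were. In the KO-IEC organoids 0 members were called (0.00717% of all genes) and in the KO-CAG organoids 21 (36.3%), Nlrc5 and Cd74 included. Libraries of the same number correlated best with each other in the crypts only for replicates 2 and 4. In both organoid experiments, with 2 pairs each, they did (0.34 and 0.07). With 2 libraries per group any correlation above 0 gives that result, so it cannot show pairing. In the crypts with library size scaling, log2 fold changes that changed sign were Erap1 -0.075 and H2-Aa -0.087. In the crypts with no low-count filter, log2 fold changes that changed sign were Erap1 -0.0059. In the crypts with the mitochondrial ribosomal RNA class covariate, log2 fold changes that changed sign were Cd74 0.040, H2-Ab1 0.28 and H2-Eb1 0.25. In the crypts with the enterocyte covariate, log2 fold changes that changed sign were Ciita -0.17, H2-Aa -0.56 and H2-T3 -0.31. In the crypts with the leukocyte covariate, log2 fold changes that changed sign were Ciita -0.11 and H2-Aa -0.42. In the crypts with no libraries of the high mitochondrial ribosomal RNA class, log2 fold changes that changed sign were Cd74 0.13, H2-Ab1 0.37, H2-Eb1 0.28 and Psmb8 0.10. With library size scaling, those of the KO-IEC organoids were H2-D1 -0.013, H2-Q4 -0.028 and Psme1 -0.054. With no low-count filter, those of the KO-IEC organoids were Psme1 -0.0023. With at least 10 counts in every library, those of the KO-IEC organoids were Psme1 -0.0027. With the replicate block, those of the KO-IEC organoids were Psme1 -0.0045. Without single libraries, those that changed sign in the crypts ran from the lowest to the highest value as Cd74 -0.63 to 0.19, Ciita -0.18 to 0.68, Erap1 -0.050 to 0.079, H2-Aa -0.40 to 0.74, H2-Ab1 -0.46 to 0.44, H2-DMa -0.73 to 0.018, H2-Eb1 -0.56 to 0.41, H2-Q4 -0.019 to 0.24, Psmb8 -0.35 to 0.12, Psmb9 -0.26 to 0.047 and Tap1 -0.051 to 0.40. Without single libraries, those that changed sign in the KO-IEC organoids ran from the lowest to the highest value as B2m -0.35 to 0.52, H2-D1 -0.11 to 0.20, H2-DMa -0.49 to 1.02, H2-K1 -0.27 to 0.19, H2-Q1 -0.91 to 0.19, H2-Q10 -0.40 to 0.47, H2-Q2 -0.63 to 0.57, H2-Q4 -0.25 to 0.27, H2-T23 -0.49 to 0.76, H2-T24 -0.17 to 0.59, Psmb10 -0.27 to 0.15, Psmb8 -1.02 to 0.12, Psme1 -0.14 to 0.13, Tap2 -0.85 to 0.14 and Tapbp -0.15 to 0.60. None of these genes was called in its experiment, and the cause was not tested. In the KO-CAG organoids no named member changed sign under any alternative run. Summing all class I heavy chain rows gave log2 ratios of 0.73 in the crypts, 0.03 in the KO-IEC organoids and 0.90 in the KO-CAG organoids; the sum of H2-K1 and H2-D1 was added after seeing the data. Depth limits members near 0 counts, among them most H2-M genes in all libraries and Nlrc5 and most class II genes in the organoids; a floor of 3 counts is 0.178 to 0.408 CPM.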

Other observations

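H2-Bl, a class I-like row of the complex that is not listed as protein coding and is therefore no member, was chosen after its values were seen. It had 130 to 323 counts in WT and 422 to 2625 counts in KO-IEC crypts, a log2 fold change of 2.71 (SE 0.65, adjusted p = 0.0460, edgeR). In the KO-CAG organoids it had 35 to 38 counts in WT and 121 to 175 in KO-CAG (1.88, SE 0.20, adjusted p = 0.000106), and in the KO-IEC organoids 58 to 97 in WT and 72 to 75 in KO-IEC (-0.05, SE 0.43, adjusted p = 0.983).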
